A study of Schistosoma mansoni with 6 samples.

Results

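The genes described here encode the respiratory chain of the blood fluke Schistosoma mansoni and the ATP synthase that it drives. They were chosen from the deposited table by gene identifier (Smp_9000 and the digit that follows, 10 genes of the mitochondrial genome) or by annotation (NADH dehydrogenase, NADH ubiquinone, succinate dehydrogenase, ubiquinol cytochrome, cytochrome b c1, cytochrome c oxidase or ATP synthase, 58 further genes). This gave 68 members of 9947 genes with a mean above 0, and another 2 matching genes had a mean of 0. The identifiers and annotations fit the name, with 4 exceptions. Smp_900100 (ND3) is a mitochondrial gene that the identifier rule leaves among the other members. Of the 57 members left when ND3 is set aside, 3 are vacuolar ATP synthase subunits, which belong to the proton pump of acidic compartments and not to the respiratory chain. ND1 (Smp_900110) was not matched, because its annotation is spelled with a hyphen. ND3 and ND1 are given below with the mitochondrial genes, which are then 12, and "nuclear members" means the remaining 57.

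RNA was measured in adult female worms recovered from mice 7 to 8 weeks after infection. Each female was cut on both sides of the ovary, and the fragments anterior to it (heads) and posterior to it (tails) were pooled at about 100 per extraction, with 3 head and 3 tail libraries from independent extractions. No strain, genotype or drug treatment is named, and both groups come from the same kind of worm. The posterior of the female is largely vitellarium, the gland that makes the yolk and eggshell cells of the egg, and the comparison asks which transcripts differ between this region and the anterior body.

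The respiratory chain sits in the inner mitochondrial membrane. Complex I (NADH dehydrogenase) and complex II (succinate dehydrogenase) pass electrons to a quinone, complex III (the cytochrome bc1 complex) passes them on to cytochrome c, and complex IV (cytochrome c oxidase) hands them to oxygen. Complexes I, III and IV pump protons, and complex V (ATP synthase) lets the protons back to make ATP. The mitochondrial genome encodes core subunits of complexes I, III, IV and V, while the nucleus encodes all of complex II and most other subunits. Adult schistosomes take much of their energy from fermenting host glucose, yet keep a working respiratory chain.

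Each value is a normalized count, that is, reads on a gene divided by a DESeq size factor and averaged over the 3 libraries of a group, so most members have 1 mean per group with no SD. For genes of lower level the whole reads of single libraries were solved back from the means, which gives libraries here lettered A to C by falling depth. The size factors, which follow sequencing depth, were 2.08 to 2.55 in head libraries and 0.320 to 0.719 in tail libraries, or an estimated 25.4 to 31.1 M and 5.25 to 11.8 M reads on genes. The normalized counts of tails summed to more than those of heads, by 0.43 on the log2 scale. Ratios were therefore also read after scaling both groups to equal totals. Among 7196 genes with a mean of at least 100, a level that all 68 members exceeded, the median log2 ratio of tails over heads was 0.14.

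Nearly all members had a higher mean in tails than in heads. Of the 68 members, 67 had a ratio above 1 and 17 (25.0%) were at least 2-fold higher in tails, while 0 were at least 2-fold higher in heads. Over all 9947 genes, 14.8% were at least 2-fold higher in tails and 26.3% in heads. Over the genes of mean 100 or more, the shares were 13.9% and 16.7%. Under equal totals 7 of the 68 members were at least 2-fold higher in tails, where 7.42% of the genes of mean 100 or more were. At 1.5-fold 44 members were higher in tails, against 28.5% of those genes, and at 3-fold 6 members, against 5.84%. The median log2 ratio of the members was 0.72, from -0.43 to 2.61, and together they took 2.87% of all head counts and 5.40% of all tail counts.

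The 2 genomes differed in size of ratio. The 12 mitochondrial genes had a median log2 ratio of 1.79, from 0.96 to 2.61, and 10 of them were at least 2-fold higher in tails. The 57 nuclear members had a median of 0.67, from -0.43 to 1.28. Only 8 of these 57 (14.0%) were at least 2-fold higher in tails, a share like the 13.9% of all genes at this level, so the 2-fold count says nothing particular of the nuclear members. In contrast, 56 of the 57 (98.2%) lay above 0, where 55.9% of the 7196 genes did, and 65.9% of the 3086 genes with a mean of at least 1000. Under equal totals 44 of the 57 nuclear members stayed above 0 (77.2%, with 35.5% of the 7196 genes), 0 were at least 2-fold higher in tails, and all 12 mitochondrial genes stayed above 0. By the identifier rule itself, with ND3 among the others and ND1 left out, the medians were 1.62 over 10 mitochondrial genes and 0.67 over 58 others, a difference of 0.94.

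**Figure D1:**
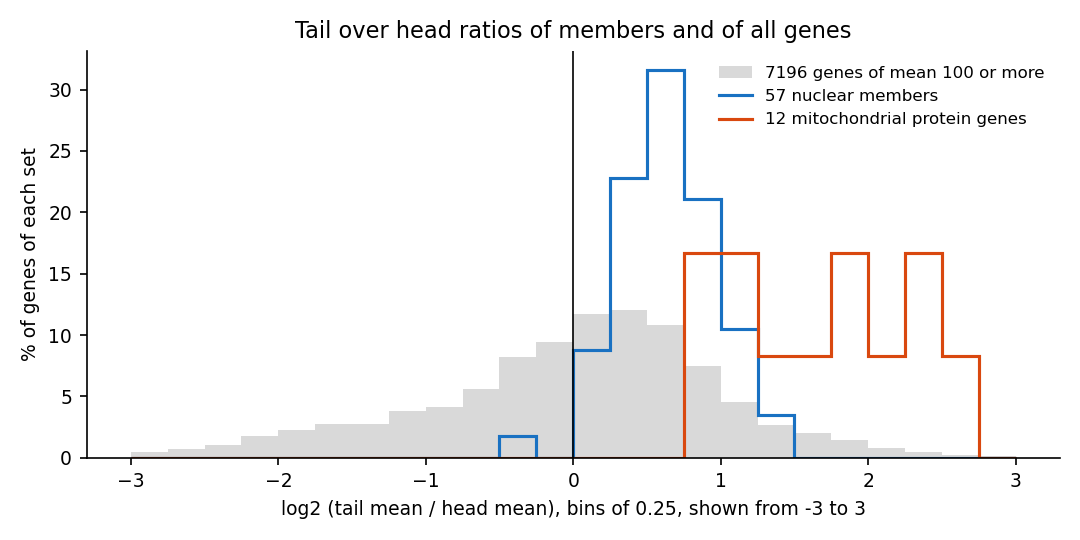
Distribution of the log2 ratio of tail mean over head mean (x axis, bins of 0.25) as a percentage of the genes in each set (y axis), for 7196 genes of mean 100 or more (grey), 57 nuclear members (blue) and 12 mitochondrial protein genes (orange). The nuclear members lie mostly between 0.25 and 1, on the right of the grey peak, and the mitochondrial genes lie between 0.96 and 2.61.

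Mitochondrial genes differed among themselves by more than the nuclear members of any one complex. ATP6 (Smp_900030), the subunit of complex V that forms part of its proton path, had the highest ratio of the 12, with a head mean of 3842 normalized counts and a tail mean of 23388, 6.09-fold higher. ND5 (Smp_900050), a proton-pumping subunit of complex I, had means of 31848 and 170482, 5.35-fold higher in tails. ND2 (Smp_900040), of the same membrane arm, had means of 8432 and 44757, 5.31-fold higher. These 3 genes lie next to each other in the RefSeq order of the mitochondrial genome.

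The lowest ratios of the 12 belonged to the cytochrome c oxidase subunits and ND6. COX1 (Smp_900000), the catalytic subunit that binds oxygen, had means of 67712 in heads and 139098 in tails, 2.05-fold higher. COX2 (Smp_900010), which takes electrons from cytochrome c, had means of 20626 and 40696, 1.97-fold higher. COX3 (Smp_900060), the remaining mitochondrial subunit of complex IV, had means of 20569 and 40017, 1.95-fold higher. ND6 (Smp_900020), a complex I subunit whose gene follows COX2, had means of 14329 and 29371, 2.05-fold higher. COX1, COX2 and ND6 are neighbours and come just before ATP6 in that order, whereas COX3 stands alone between ND5 and CYTB.

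The other 5 genes, which follow COX3 in a row, had ratios between these groups. CYTB (Smp_900070), the quinol-oxidizing core of complex III, had means of 17648 and 67631, 3.83-fold higher in tails. ND4L (Smp_900080) had means of 2306 and 7739, 3.36-fold higher, and ND4 (Smp_900090) had means of 37620 and 105374, 2.80-fold higher. Both are membrane subunits of complex I, and since their genes overlap in RefSeq, how reads were split between them is uncertain. ND3 (Smp_900100) had means of 2787 and 9964, 3.57-fold higher, and ND1 (Smp_900110) had means of 18070 and 72805, 4.03-fold higher. These groups of genes were formed after the values were seen, and because the single libraries of mitochondrial genes could not be solved, whether ratios within or between the groups differ beyond the spread of libraries was not tested.

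**Figure D2:**
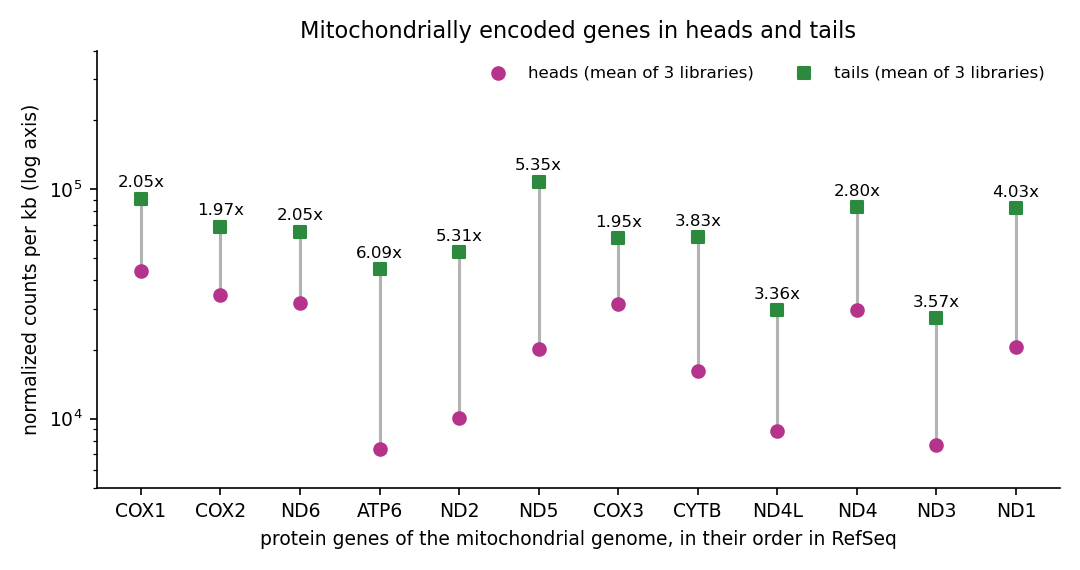
Normalized counts per kb (y axis, log axis) of the 12 mitochondrial protein genes in heads (circles) and tails (squares), each the mean of 3 libraries, in the order of the genes in RefSeq (x axis); the number over each pair is the tail mean over the head mean. The lines are shortest for COX1, COX2, ND6 and COX3, at 1.95- to 2.05-fold, and longest for ATP6, ND2 and ND5, at 5.31- to 6.09-fold.

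Because of these unequal ratios the order of the mitochondrial genes per length was not the same in the 2 groups. In heads COX1 was highest, at 44170 normalized counts per kb, followed by COX2 at 34724 and ND6 at 31843, and ND5 was seventh at 20106. In tails ND5 was highest, at 107627 normalized counts per kb, followed by COX1 at 90736 and ND4 at 83630. COX1 was thus 2.20 times the level of ND5 per kb in heads and 0.843 times in tails. ND6 was 4.33 times the level of ATP6 per kb in heads and 1.46 times in tails. COX1 over COX3 was 1.40 in heads and 1.48 in tails, which follows from their like tail over head ratios. A ratio between genes of the same group does not depend on how heads and tails were scaled.

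All 46 nuclear subunits of the 5 complexes had higher means in tails, with a median log2 ratio of 0.70, and 40 of them stayed above 0 under equal totals. The 6 that did not were all complex I subunits. Means of nuclear genes were not set per length, so they do not rank the transcripts of different genes.

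Complex I had the lowest nuclear ratios, with a median log2 ratio of 0.50 over 21 subunits, from 0.18 to 1.16, and with 2 at least 2-fold higher in tails. Under equal totals 15 of the 21 stayed above 0 and the median was 0.07. The highest ratio was that of Smp_079710, an alpha subcomplex subunit, with means of 621 and 1390 normalized counts, 2.24-fold higher. The other at least 2-fold higher was Smp_054200, annotated as the sgdh subunit, with means of 1875 and 3799, 2.03-fold higher. The lowest ratio was that of Smp_171900, an iron sulfur subunit, with means of 804 and 913, 1.14-fold higher, which turned to a log2 ratio of -0.24 under equal totals. The 2 nuclear complex I members with the most normalized counts, which also depend on length, were Smp_036400, a beta subcomplex subunit, at 3112 and 4941 (1.59-fold), and Smp_213280, Fe S protein 2 of the arm that carries electrons to the quinone, at 2716 and 4040 (1.49-fold). The 6 mitochondrial subunits of the same complex, ND1 left out, had a median log2 ratio of 1.79.

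Complex II has no mitochondrial subunit, and its 4 subunits lay close together, at log2 ratios from 0.66 to 0.87. Smp_061230, annotated as succinate dehydrogenase with no subunit named, had means of 4579 in heads and 8359 in tails, 1.83-fold higher. The iron sulfur subunit Smp_089640, which carries electrons from the flavin to the quinone site, had means of 3953 and 6231, 1.58-fold higher. The membrane subunits Smp_008310 (subunit C) and Smp_037910 (the cytochrome subunit) were 1.60- and 1.64-fold higher in tails, at 3378 and 5405 and at 2545 and 4168. All 4 stayed above 0 under equal totals, with a median log2 ratio of 0.27.

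The 6 nuclear subunits of complex III had a median log2 ratio of 0.84, from 0.47 to 1.18. Cytochrome c1 (Smp_005290), the subunit that hands electrons to cytochrome c, had the highest ratio, with means of 1932 in heads and 4383 in tails, 2.27-fold higher. A core protein (Smp_079450) had means of 2456 and 3589, 1.46-fold higher. The lowest ratio was 1.39, for Smp_063250, at 992 in heads and 1376 in tails. All 6 stayed above 0 under equal totals, with a median of 0.41. CYTB, the mitochondrial subunit of the complex, had a log2 ratio of 1.94.

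Complex IV had the smallest gap between the genomes. Its 3 nuclear subunits had log2 ratios of 0.71, 0.71 and 0.90, and its 3 mitochondrial subunits lay between 0.96 and 1.04. Smp_148800, annotated as cytochrome c oxidase with no subunit named, had means of 2593 in heads and 4855 in tails, 1.87-fold higher. Subunit IV (Smp_128610) had means of 2492 and 4074, 1.64-fold higher, and Smp_066200 (Vb), at 362 and 593, was also 1.64-fold higher. All 3 stayed above 0 under equal totals.

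Complex V had a median log2 ratio of 0.85 over 12 nuclear subunits, close to that of complex III, from 0.64 to 1.28, with 3 at least 2-fold higher in tails. The lipid-binding subunit (Smp_000880), which forms the ring that turns in the membrane, had means of 4832 in heads and 11740 in tails, 2.43-fold higher. The alpha subunit (Smp_002880), part of the catalytic head, had means of 7805 and 18907, 2.42-fold higher, and the epsilon subunit (Smp_064330) was 2.17-fold higher. Smp_038100 of the F1 part, the nuclear member with the most normalized counts, had means of 11044 and 21435, 1.94-fold higher. The lowest of the 12 was the B subunit of the stalk (Smp_154530), 1.56-fold higher at 5730 and 8916. All 12 stayed above 0 under equal totals, with a median of 0.42.

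**Figure D3:**
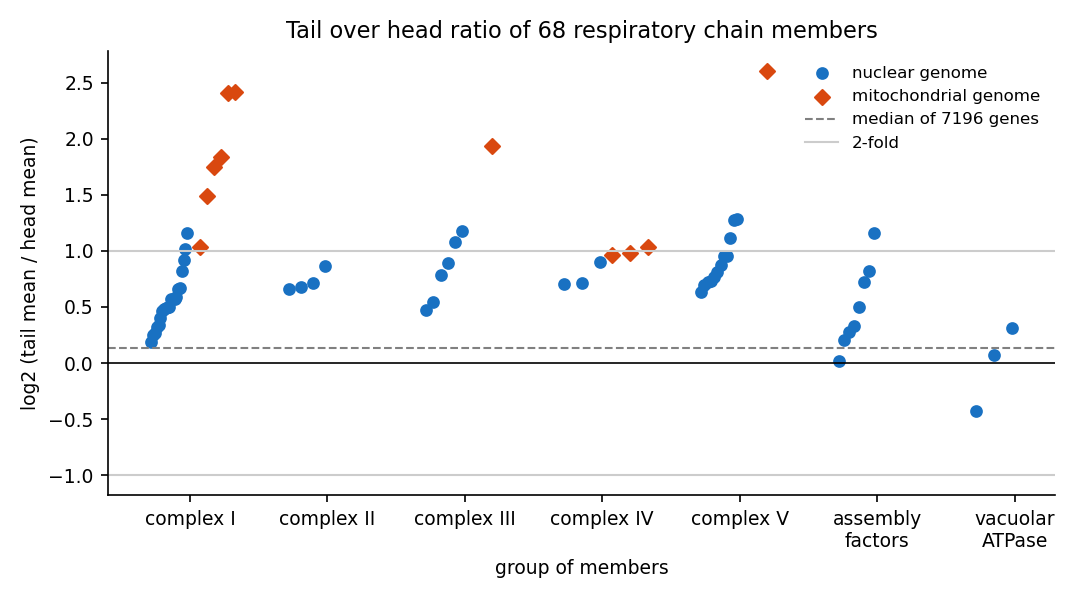
Log2 ratio of tail mean over head mean (y axis) of each of the 68 members, grouped by complex, assembly factor or vacuolar ATPase (x axis), with nuclear genes as circles and mitochondrial genes, ND3 included, as diamonds; the dashed line is the median of 7196 genes (0.14) and the grey lines mark 2-fold. Within complexes I, III and V the mitochondrial genes lie above most or all nuclear ones. In complex IV they also lie above the nuclear ones, but the gap is small and all lie between 0.71 and 1.04.

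Members that build the complexes without being part of them had a lower median ratio than the nuclear subunits, though some lay above the subunit median. They also had lower levels, with means over all libraries of 175 to 952, against 478 to 16239 for nuclear subunits. The 8 assembly factors had a median log2 ratio of 0.42, and 4 of the 8 stayed above 0 under equal totals. The copper chaperone of cytochrome c oxidase (Smp_213360) had the highest ratio, with means of 229 and 514, 2.24-fold higher in tails. A translational activator of cytochrome c oxidase (Smp_098090), with means of 884 and 1020, was 1.15-fold higher, and an F1 assembly factor (Smp_162270), with means of 174 and 176, was 1.01-fold higher. The 3 vacuolar ATP synthase members were 0.741-, 1.05- and 1.24-fold in tails relative to heads. Subunit h (Smp_015070), at 1293 in heads and 959 in tails, was the one member of 68 with a lower mean in tails, and under equal totals all 3 vacuolar members were below 0.

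For 11 of the 68 members, all nuclear, reads of single libraries were solved in both groups and could be tested. These were 4 subunits and 7 assembly factors of low level. Recovery reached a mean of 1000 in heads and 2500 in tails, so a gene high in heads was more easily lost than one high in tails, and the 11 do not stand for the 68. By limma on log2(normalized count + 1), with adjusted p under 0.05 over 5736 genes, 8 of the 11 were higher in tails and 0 in heads, also at an unadjusted p under 0.05. Over all 5736 genes tested, 26.2% were higher in tails and 38.2% in heads. The 3 tail libraries all lay above the 3 head libraries for 9 of the 11 members, against 29.6% of the 5736 genes, and 43.4% had all heads above all tails. Under equal totals 3 of the 11 passed (Smp_079710, Smp_141470 and Smp_213360), where 14.1% of genes were then higher in tails and 53.4% in heads.

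Among the subunits, Smp_079710 of complex I had 612.0, 634.3 and 616.2 normalized counts in head libraries A, B and C and 1140, 1336 and 1693 in tail libraries A, B and C. The groups were far apart, and the tails were more spread than the heads. The log2 fold change was 1.14 ± 0.145 (SE), with an adjusted p of 0.000384 by limma. For Smp_066200 (Vb) of complex IV the heads held 346.6, 358.4 and 381.0 and the tails 534.0, 513.5 and 732.4. All tails lay above all heads, with tail C the highest, and the log2 fold change was 0.69 ± 0.154 (SE), adjusted p of 0.00499 by limma. Smp_022460, annotated as mitochondrial NADH ubiquinone oxidoreductase, held 439.9, 519.3 and 545.6 in heads and 660.5, 561.7 and 766.8 in tails. Head C and tail B nearly met, and the log2 fold change was 0.40 ± 0.147 (SE), adjusted p of 0.0436 by limma. In Smp_171900 the heads held 733.6, 786.7 and 890.7 and the tails 725.9, 879.4 and 1133. The groups overlapped and no difference was detectable, at a log2 fold change of 0.16 ± 0.168 (SE), adjusted p of 0.409 by limma.

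Of the 7 assembly factors, 5 passed the test. The copper chaperone Smp_213360, which brings copper to cytochrome c oxidase, held 209.8, 237.1 and 240.9 normalized counts in head libraries and 507.5, 411.4 and 622.8 in tail libraries. Every tail library was well above every head library, and the log2 fold change was 1.14 ± 0.169 (SE), adjusted p of 0.000733 by limma. COX11 (Smp_141470), which takes part in placing copper in COX1, held 146.6, 160.5 and 156.9 in heads and 297.6, 263.8 and 256.6 in tails. Here tail A was the highest, and the log2 fold change was 0.81 ± 0.139 (SE), adjusted p of 0.00147 by limma. Succinate dehydrogenase assembly factor 2 (Smp_029740), known in yeast and human cells for placing the flavin in complex II, held 451.3, 547.0 and 532.7 in heads and 831.5, 777.3 and 920.2 in tails. Its groups were also apart, at a log2 fold change of 0.72 ± 0.121 (SE), adjusted p of 0.00129 by limma.

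The other assembly factors differed less. Smp_199730, annotated as a subunit XV assembly protein of cytochrome c oxidase, held 770.1 to 797.1 in heads and 972.0 to 1236 in tails, a log2 fold change of 0.49 ± 0.111 (SE), adjusted p of 0.00533 by limma. Cox15 (Smp_147510), an enzyme that makes heme a for complex IV, held 492.4 to 532.2 in heads and 571.5 to 654.1 in tails, a log2 fold change of 0.28 ± 0.105 (SE), adjusted p of 0.0463 by limma. Smp_033370, with the same annotation as Smp_199730, held 203.9 to 208.6 in heads and 212.8 to 286.5 in tails. Its groups did not overlap, but it missed the threshold at a log2 fold change of 0.32 ± 0.156 (SE), adjusted p of 0.108 by limma. The F1 assembly factor Smp_162270 held 152.9 to 187.3 in heads and 158.9 to 197.2 in tails, which overlapped, at a log2 fold change of 0.01 ± 0.164 (SE), adjusted p of 0.942 by limma. The calls of Smp_022460 and Smp_147510 depended on the libraries and on the model. Leaving out any head library, tail A or tail C ended the call of Smp_022460, and leaving out any head library, tail B or tail C ended that of Smp_147510. Both calls were also lost with no mean-variance trend, and that of Smp_147510 with a pseudocount of 10. Without tail A, Smp_033370 passed, at a log2 fold change of 0.45.

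**Figure D4:**
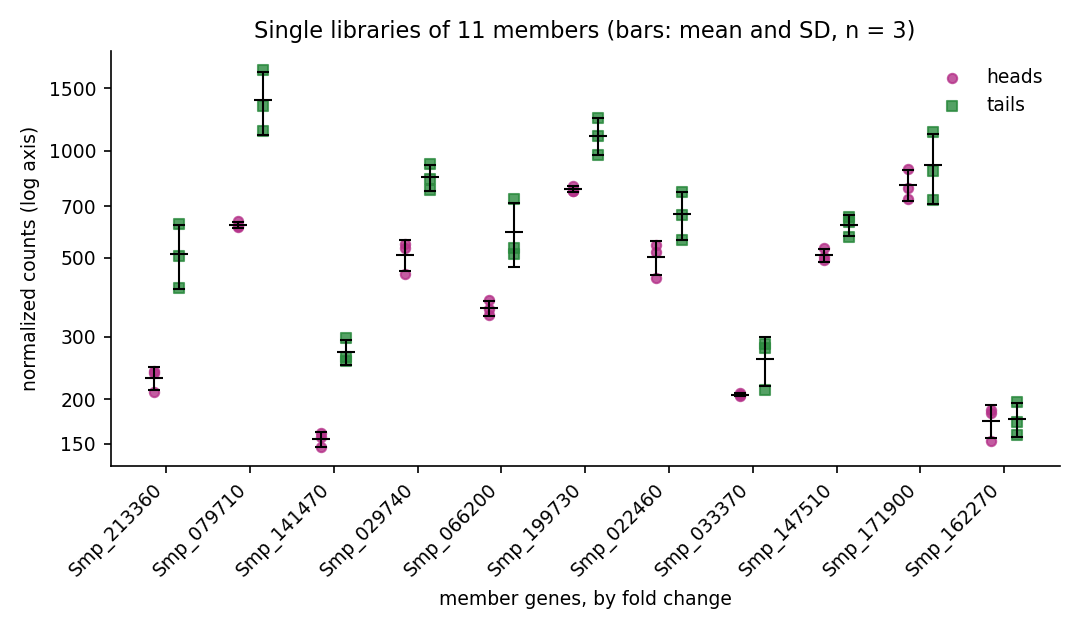
Normalized counts (y axis, log axis) of the 11 members with solved reads (x axis, ordered by fold change) in the 3 head libraries (circles) and the 3 tail libraries (squares), with the mean and SD (n = 3) as bars. Tails lie above heads without overlap in 9 members, and overlap with heads in Smp_171900 and Smp_162270; the tail libraries are mostly more spread than the head libraries.

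In another 9 members reads were solved in tails only. They were solved because recovery reached higher means in tails, and without head libraries their differences were not tested. Smp_033610, a beta subcomplex subunit of complex I, held 1535, 1887 and 1862 in tail libraries A, B and C beside a head mean of 934, and Smp_059930, subunit 6 of complex III, held 2129, 2264 and 2770 beside a head mean of 1286. For the vacuolar subunit h (Smp_015070) all 3 tail libraries lay below the head mean of 1293, at 1078, 740.4 and 1058. For the translational activator Smp_098090, tail A at 796.8 lay below the head mean of 884 and the others, at 1143 and 1120, above it. For the remaining 48 members, the 11 mitochondrial members among them, no single library was solved.

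The libraries of a group were not alike for these genes. Tail C was the highest tail library in 15 of the 20 members solved there, and tail A the lowest in 13. Over 3854 genes of mean 100 to 2500 in tails, tail C was highest in 41.8% and tail A lowest in 41.0%. Members were tried in tails at any head mean, but other genes only with a head mean under 1000. The 20 members and the 3854 genes were thus not selected alike. In heads, library A was the lowest in 9 of 11 members, against 47.9% of 3719 genes. As a measure of spread, the median SD of log2 values between libraries was 0.21 in tails and 0.06 in heads for genes of mean 500 to 1000. It was 0.22 in tails for genes of mean 1000 to 2500, which, members aside, all had a head mean under 1000. Mitochondrial genes lie above these levels, so their own spread was not measured.

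Marker genes of cell types differed between the fragments too. All 8 vitelline cell markers were at least 2-fold higher in tails, and together they took 0.0665% of head counts and 4.62% of tail counts. Most of them are named in the paper among its tail-enriched transcripts from these same data. Their direction was therefore known in advance and is not a test of cell content. Of 16 genes annotated as myosin heavy chain, paramyosin, tropomyosin or troponin, 10 were at least 2-fold higher in heads and 0 in tails (0.893% of head counts and 0.201% of tail counts). This list stands for muscle, but it includes Smp_046060, annotated as non muscle myosin, and Smp_155840, annotated as cellular myosin. Neither was among the 10. Of 27 oesophageal gland genes, 18 were at least 2-fold higher in heads and 5 in tails (1.16% and 0.0433% of counts). Among the 14 of these 27 with a mean of at least 100, 13 were at least 2-fold higher in heads and 0 in tails. Below that level, a MEG-2 gene (Smp_159830) had means of 1.40 in heads and 134 in tails. The 36 tegument genes took 0.789% and 0.470%, or 0.786% and 0.294% without 1 tetraspanin (Smp_155310, 88.8-fold higher in tails), and intestinal proteases and saposins took 6.23% and 4.01%. The median log2 ratios were -0.90 over 36 and -0.26 over 21 genes. The 4 germ cell genes did not move together, with a nanos gene (Smp_055740) 17.8-fold higher in tails at 640, nanos 1 (Smp_051920) at 349 and 246, a vasa-like gene (Smp_154320) at 2158 and 3335, and boule (Smp_144860) at 60.3 and 8.09. The part of these differences in the ratios of the respiratory chain genes was not tested. In such bulk samples, fewer cells of a type and less RNA per cell cannot be told apart.

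Of 20 other genes that serve the chain, found by annotation, 3 (15.0%) were at least 2-fold higher in tails and 1 in heads, a share in tails like the 14.8% of all genes. Their median log2 ratio was 0.21, and 18 of the 20 lay above 0, where 48.7% of all 9947 genes and 55.9% of those of mean 100 or more did. That median was below the 0.43 by which tail totals exceeded head totals, so under equal totals it falls below 0. Most of the 20 genes had a log2 ratio below 0.43, so most fall below 0 under equal totals. Among the genes of mean 100 or more, 35.5% then stayed above 0, so the count of 18 depends on the scaling. Prohibitins, scaffold proteins of the inner mitochondrial membrane, had the highest ratios, with Smp_075940 at 1083 in heads and 3482 in tails (3.21-fold) and Smp_075210 at 1682 and 3771 (2.24-fold). The phosphate carrier (Smp_083720), which brings phosphate in for ATP synthesis, was 1.92-fold higher in tails, and the voltage dependent anion channels of the outer membrane (Smp_091240 and Smp_022990) were 1.51- and 1.09-fold. Genes that copy or transcribe mitochondrial DNA had ratios nearer to 1 than the prohibitins and the phosphate carrier, as did several other genes of this list. Mitochondrial transcription factor A (Smp_128000) was 1.11-fold and DNA polymerase gamma (Smp_161380) 1.10-fold in tails relative to heads. The twinkle helicases (Smp_146360 and Smp_177240) were 1.28- and 0.899-fold, at low means over all libraries of 19.2 and 29.0.

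Of the 12 of these 20 genes that could be tested, 4 were higher in tails and 1 in heads by limma at an adjusted p under 0.05, beside the 26.2% and 38.2% of all genes tested. SCO1 (Smp_034700), which carries copper to COX2, had a log2 fold change of 1.10 ± 0.147 (SE), with an adjusted p of 0.000468 by limma. Surfeit locus protein 1 (Smp_017090), an assembly factor of complex IV, had a log2 fold change of 0.45 ± 0.164 (SE), with an adjusted p of 0.0394 by limma. Of 5 tested genes annotated to make or bind the quinone that links the complexes, COQ9 (Smp_038420) and COQ10 (Smp_103280) passed, with log2 fold changes of 0.90 ± 0.106 (SE) and 0.49 ± 0.116 (SE). Calls in this list were not repeated under equal totals or with libraries left out. The fold changes of surfeit locus protein 1 and COQ10 lay close to the 0.43 by which tail totals exceeded head totals, so these 2 calls rest on the scaling. COQ6 (Smp_153460), coq7 (Smp_180060) and Smp_021910 did not pass, at log2 fold changes of 0.21 ± 0.106 (SE), 0.07 ± 0.133 (SE) and 0.18 ± 0.114 (SE), and another quinone synthesis gene that could not be tested, Smp_001430, was 1.01-fold in tails relative to heads. The ATPase inhibitor Smp_023010, of a protein family that stops the ATP synthase from running in reverse, was the 1 gene higher in heads, at 384 in heads and 164 in tails, with a limma log2 fold change of -1.24 ± 0.155 (SE) and an adjusted p of 0.000358 by limma. A second gene annotated as ATPase inhibitor (Smp_134510) was 1.16-fold in tails relative to heads, at 2579 and 2983.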

How the data were processed

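The only table used was deposited as a comparison of heads and tails. The authors extracted RNA with Trizol, prepared libraries with a TruSeq Stranded kit and aligned the reads to the WormBase ParaSite v4 genome with STAR 2.5.0b. How reads were assigned to genes is not described in those sources. For the signal values, the authors scaled each library by its DESeq 1.22 size factor and took means of the gene counts, 1 mean per group and 1 over all 6 libraries, with 0 columns of single libraries. Further deposited columns hold the authors' fold changes and p-values, which were not used. Mitochondrial gene order and lengths came from RefSeq.

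Reads of single libraries were solved as whole numbers that give a mean to its 10 significant digits, where 1 solution held at least 0.95 of the probability. In heads this succeeded for 2681 of 2767 genes of mean 80 to 500 and 1250 of 1879 of mean 500 to 1000. In tails only members and genes with a head mean under 1000 were tried. Of the genes tried, it succeeded for 2363 of 2376 of mean 300 to 1250 and 324 of 363 of mean 1250 to 2500. Tested on simulated data, 267 of 268 and 121 of 121 solved head genes and 299 of 299 and 231 of 234 solved tail genes were right in these ranges. The second check took 300 real genes per group whose reads were known and widened the tolerance. It solved 39 in heads, 37 of them right, and 17 in tails, 15 of them right. These are far smaller shares solved than in the ranges above. Both checks drew on the genes that also set the spread between libraries expected in the solving, so they may favour the method.

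Tails were compared with heads by limma 3.58.1 (R 4.3.3) with a mean-variance trend, at 10 or more reads over 6 libraries and Benjamini-Hochberg adjustment. On simulated data of 5681 genes it found 96 of 100 genes changed 2-fold, 29 of 100 changed 1.5-fold and 4 of 5481 unchanged genes. The simulation changed few genes and gave both groups the same dispersion. In the real data tails were more spread than heads, and 26.2% of genes were called higher in tails and 38.2% in heads. The simulated rates of detection and of false calls therefore need not hold for the real data. P-values measure the spread between independent extractions. Group means have no test, and a 2-fold difference served as a description. Alternatives were other scalings, pseudocounts, filters and folds, and leaving out each library.

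Named members were all mitochondrial and complex II genes, and in the other complexes the 2 highest means and the extreme ratios, plus the 5 largest differences that passed. Smp_054200, Smp_064330, Smp_022460 and the other tested genes were added after their values were seen. Members and lists were chosen with earlier results of these data known.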

Additional observations from a re-analysis of the deposited data

How the results depend on the processing

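The 17 members at least 2-fold higher in tails became 7 under equal totals, 44 at 1.5-fold and 6 at 3-fold. For the genes of mean 100 or more, the share of 13.9% became 7.42%, 28.5% and 5.84% under the same settings. The identifier rule's medians of 1.62 and 0.67 became 1.19 and 0.24 under equal totals, and 1.48 and 0.54 when centred on the genes of mean 100 or more. With subunits alone the median of the other members was 0.71 and the difference of 0.94 became 0.91. With ND3 and ND1 as mitochondrial, a choice made after seeing the data, the medians were 1.79 and 0.67 and the difference 1.13. The 8 members higher in tails by limma became 3 under equal totals, 6 with no mean-variance trend, 7 with a pseudocount of 10 and 6 to 8 when each library was left out in turn. Under equal totals the log2 fold changes of Smp_022460 (-0.032), Smp_033370 (-0.11), Smp_147510 (-0.15), Smp_162270 (-0.41) and Smp_171900 (-0.26) turned. Leaving out 1 library moved Smp_162270 from -0.076 to 0.086 and Smp_171900 from -0.0037 to 0.32. The count of members higher in heads stayed at 0 under every alternative run. The cause of these changes other than the scaling itself was not tested. No paired analysis was possible because the columns carry no replicate numbers. The planned test of the mitochondrial share per library was not run, because no mitochondrial gene had its reads solved. Head libraries held more reads than tail libraries, so values of single tail libraries rest on fewer reads. The part of depth in the wider spread of tail libraries was not tested.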

Other observations

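Besides ND1, 4 genes with annotations of the chain were missed by the spelling of the rule. Subunit 7 of the cytochrome b-c1 complex (Smp_024120) had means of 5320 in heads and 6696 in tails, 1.26-fold higher, below all 6 nuclear complex III members. Smp_027480, annotated as NADH:ubiquinone dehydrogenase, had means of 2381 and 2908, a log2 ratio of 0.29. Smp_144010 and Smp_170410 had means over all libraries of 6.42 and 0.457, too low for a ratio to be read.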
